A study of Mus musculus with 246 samples.

Results

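The 10 genes followed here belong to the choroid plexus epithelium and were measured in 6 brain regions: Ttr, Folr1, Clic6, Kl, Enpp2, Slc4a5, Aqp1, Prlr, Sostdc1 and Tmem72. They were chosen by name as markers of this epithelium, and they are 10 of the 56691 genes in the count table. RNA was sequenced from punches of the mPFC, ACC, Nacc, BLA, DMT and vHipp of 41 adult male CD1 mice, an outbred strain, with 1 library per mouse and region. Control litters were reared with standard bedding and their dams received an empty gel (Ctrl_Veh). Litters of the early life adversity (ELA) groups were reared with limited bedding and nesting material, and their dams received either the empty gel (ELA_Veh) or the same gel with SAFit2, an inhibitor of FKBP51 that reached the pups through the milk (ELA_SAFit2). In each condition 1 set of mice met an unfamiliar mouse for 10 min (SocialInteraction) and 1 set did not (NoInteraction). Each group held 7 mice, apart from Ctrl_Veh with SocialInteraction, which held 6. Punches of both hemispheres were pooled per mouse and region, and every region came from the same 41 mice. Which pups shared a litter is not given in the labels, so p-values measure the spread between mice.

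The choroid plexus is a folded, vascular tissue that hangs in the brain ventricles, and its epithelium secretes the cerebrospinal fluid. Its cells are not neurons or glia of the surrounding tissue, and a punch taken close to a ventricle can carry some of them along. Transthyretin (Ttr), a carrier of thyroid hormone and retinol, is made by this epithelium at very high levels and is rarely made elsewhere in the brain. The other members serve transport and signalling: Folr1 takes up folate, Aqp1 is a water channel, Slc4a5 carries sodium and bicarbonate, Clic6 is a chloride channel family protein, Prlr is the prolactin receptor, Kl encodes the anti-ageing protein klotho, Enpp2 encodes autotaxin, Sostdc1 is a secreted antagonist of BMP and Wnt signals, and Tmem72 is a membrane protein.

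Of the members, 5 have a promoter window in the RefSeq table used here. The 250 bases before the annotated start are shown for 3 of them, whose levels were low where Ttr was low, as reference context for the levels below. The sequences run 5′ to 3′ on the strand of the gene (GRCm38.p6). Capitals mark the GC box GGGCGG and the TATA box TATAAA on either strand. Slc4a5 lies at chr6:83237125-83237374 on the plus strand, Aqp1 at chr6:55336049-55336298 on the plus strand and Tmem72 at chr6:116716759-116717008 on the minus strand.
Slc4a5: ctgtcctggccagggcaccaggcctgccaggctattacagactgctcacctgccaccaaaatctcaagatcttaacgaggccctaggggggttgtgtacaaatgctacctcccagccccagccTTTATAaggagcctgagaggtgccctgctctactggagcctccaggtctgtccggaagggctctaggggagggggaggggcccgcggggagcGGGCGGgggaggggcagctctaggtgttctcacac
Aqp1: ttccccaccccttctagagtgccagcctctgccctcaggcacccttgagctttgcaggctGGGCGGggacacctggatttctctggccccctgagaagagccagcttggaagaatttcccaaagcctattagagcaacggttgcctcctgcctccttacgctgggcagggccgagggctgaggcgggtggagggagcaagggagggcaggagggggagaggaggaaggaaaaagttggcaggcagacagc
Tmem72: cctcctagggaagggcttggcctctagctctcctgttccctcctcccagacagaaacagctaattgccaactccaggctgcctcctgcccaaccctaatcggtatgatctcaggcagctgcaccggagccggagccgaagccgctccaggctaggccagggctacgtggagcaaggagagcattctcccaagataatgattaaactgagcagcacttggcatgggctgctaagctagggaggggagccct
Of the 7 windows of these members, 3 held the GC box and 1 held the TATA box. Among all 32851 windows of the table the shares were 32.7% and 12.4%. The core TAATCC, which the plexus factor OTX2 binds, was in 0 of the 7 windows and in 6.25% of all windows, and this says only that these letters are not in those bases.

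Before the members are described, 2 features of the libraries are needed. Libraries were compared between regions over the 60 genes whose deviations between mice were most alike in the other 5 regions. By this comparison, 12 Nacc libraries matched another mouse than the one on their label, and 0 libraries of the other regions did. These 12 libraries were spread evenly over the labels, with 2 in each of the 6 groups. Each matched a mouse of another condition or set than its label gives. Groups were kept as labelled, so comparisons of conditions and sets in the Nacc may mix groups. By correlation with the mean profile of each region, 8 libraries lay closest to another region than that on the label: 5 between mPFC and ACC, and 3 BLA libraries (mice 59, 87 and 89) that lay closest to Nacc. Total counts per library lay between 20804219 and 43351397, with a median of 28844763. At such a depth 3 counts are about the lowest level that can be told from 0, and this floor covers counting error only. The intervals of fold changes below come from edgeR's fits, which include the spread between mice.

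All 10 members had their highest median level in the BLA. Folr1 and Slc4a5 rested on 3 counts or fewer in 26 to 41 of the libraries in each of the mPFC, ACC, Nacc and vHipp, whereas Enpp2 was at 52.1 CPM or more in every library of every region, Clic6 at 11.6 or more in every Nacc library and Kl at 15.8 or more in every vHipp library. In bulk punches, fewer cells of a type and less RNA per cell cannot be told apart. Levels are given in CPM, read counts scaled to the size of each library with TMM. In the BLA, Ttr was at a median of 2354 CPM over 41 libraries, from 0 in the lowest to 5071 in the highest. In the DMT, the median was 19.8 CPM, with the lowest library at 0 and the highest at 1212. In the vHipp, the median was 0.415 CPM and the highest library reached 243. In the mPFC, ACC and Nacc the medians of Ttr were 0.0441, 0.0798 and 0.0719 CPM, and the highest values were 0.655, 0.382 and 1.69. Ttr exceeded 100 CPM in 33 BLA libraries, in 14 DMT libraries and in 4 vHipp libraries, and in 0 libraries of the mPFC, ACC and Nacc. Ttr rested on 3 counts or fewer in 28 mPFC, 31 ACC and 31 Nacc libraries. Ttr was thus near its detection limit in the mPFC, ACC and Nacc, and libraries with almost none and with much of it were found side by side in the BLA and DMT.

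**Figure D1:**
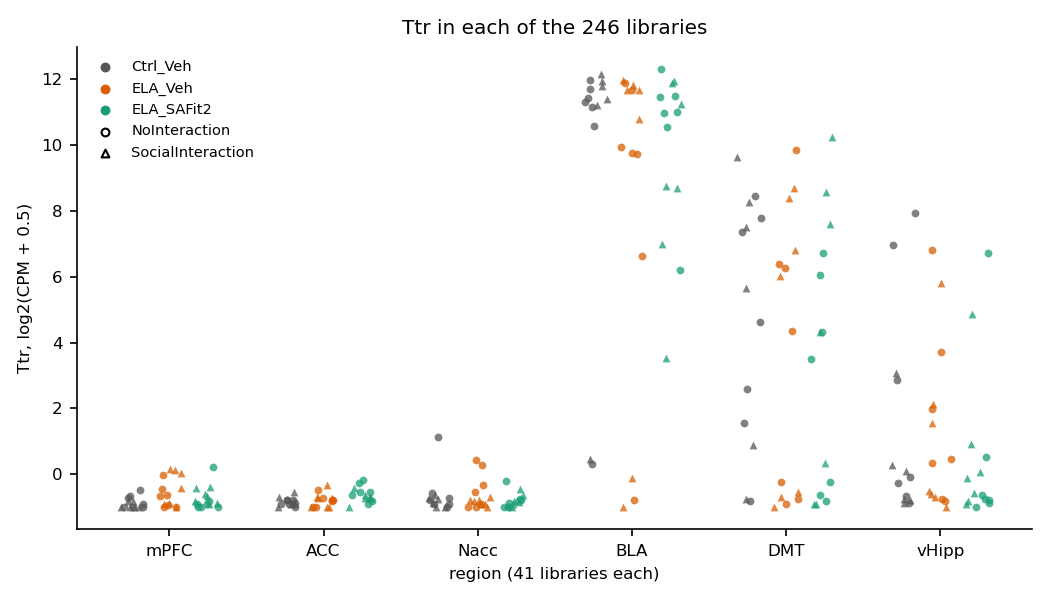
Ttr in each library, as log2(CPM + 0.5) on the vertical axis, by region on the horizontal axis. Points are libraries, colours are conditions, circles are mice without and triangles mice with social interaction. 33 of 41 BLA libraries lay above 100 CPM, and all mPFC, ACC and Nacc libraries lay at or below 1.69 CPM.

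The members together took up a median of 0.482% of the reads in the BLA, and up to 0.994% in 1 library. For the DMT the median was 0.0256%, for the vHipp 0.0105%, and it was 0.0152%, 0.0176% and 0.0149% in the mPFC, ACC and Nacc. Much of what remained in the last 3 regions was Enpp2. With Enpp2 left out, the median summed level of the other members was 2889 CPM for the BLA, with 52.2 for the DMT and 26.9 for the vHipp. The same sum was 6.29 CPM for the mPFC, 5.15 for the ACC and 36.5 for the Nacc.

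In the BLA, the transport members Folr1, Slc4a5 and Aqp1 had medians of 32.6, 30.5 and 17.9 CPM, and Clic6 a median of 86.9. The signalling members Kl, Prlr and Sostdc1 had medians of 160, 70.9 and 26.1 CPM. Tmem72 stood at 117 CPM and Enpp2 at 1897. Per length, with the transcript lengths of GENCODE M21 (1186 bases for Ttr and 3095 for Enpp2), Ttr reached 1985 CPM per kb and Enpp2 613, whereas Folr1 reached 24.8. Ttr was therefore the most abundant member per length in the BLA, ahead of Enpp2. Tmem72 at 6.81 CPM per kb is the least certain of these, since its transcript in that annotation has 17152 bases.

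**Figure D2:**
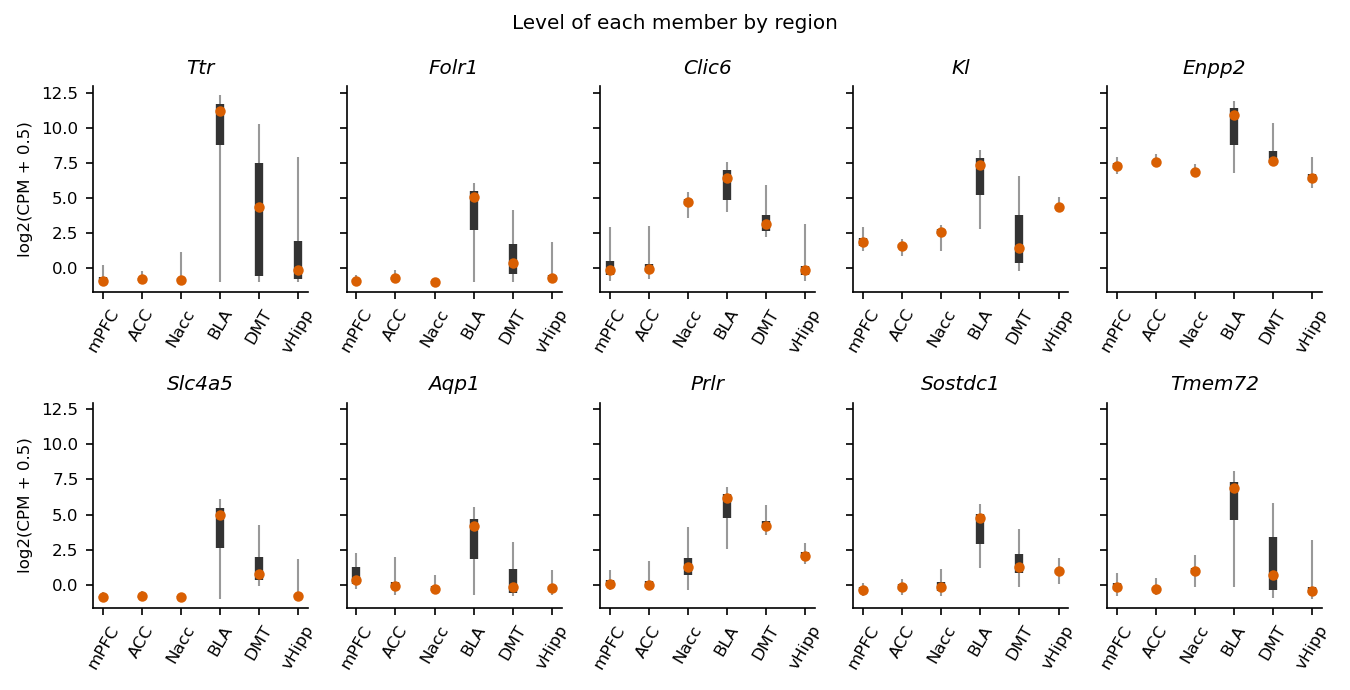
Level of each member by region, as log2(CPM + 0.5). Points are medians, thick lines the middle of the libraries from the first to the third quartile and thin lines the lowest to the highest of 41 libraries. All 10 members peaked in the BLA, and Enpp2, Clic6, Kl and Prlr were also present in other regions.

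All 10 members were higher in the BLA than in the mean of the other regions (edgeR quasi-likelihood test with the mouse as a block, Benjamini-Hochberg adjustment over 17381 genes). The log2 fold changes lay between 3.42 and 12.32, with a median of 4.86. In the same comparison 39.2% of all genes tested were higher in the BLA, with a median log2 fold change over all genes of 0.01. The change was 12.32 for Ttr (adjusted p = 5.49e-81), 7.69 for Folr1 and 3.42 for Enpp2. The 10 members were also higher in the BLA than in the DMT (higher genes 44.6% of all), with a log2 fold change of 5.59 ± 0.54 (SE) for Ttr and 1.45 ± 0.15 for Prlr.

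In the DMT, 8 of 10 members were higher than in the mean of the others, against 42.7% of all genes. Kl, at a log2 fold change of -0.31, and Aqp1, at 0.05, did not pass the test. Prlr was well above the other regions outside the BLA, at a median of 17.4 CPM and never below 11.4, also in the DMT libraries without Ttr. Between DMT and vHipp, 9 members were higher in the DMT (42.7% of all genes), and Kl was higher in the vHipp, by 1.28 on the log2 scale. In the vHipp only Kl was higher than in the mean of the others, with a log2 fold change of 1.23 ± 0.18, beside 38.3% of all genes, and 4 members were lower. In the mPFC, 0 members were higher (36.8% of all genes) and 9 were lower. In the ACC, 0 were higher (35.3% of all genes) and 10 were lower. In the Nacc, only Clic6 was higher (39.5% of all genes), with a log2 fold change of 2.97, and 8 were lower.

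Of 19 further epithelial genes of the plexus, 18 were higher in the BLA than in the mean of the others, with a median log2 fold change of 3.50. The changes ran from -0.05 for Wfikkn2, which did not pass, and 1.58 for Rdh5, a retinol dehydrogenase, to 6.20 for the tight junction gene Cldn2 and 7.02 for Kcne2, a potassium channel subunit. In the DMT 13 of the 19 were higher and 3 were lower. Of 10 ependymal genes, which mark the ciliated cells that line the ventricles, 10 were higher in the BLA, with a median log2 fold change of 2.36. Foxj1, which controls motile cilia, had a median of 15.96 CPM for the BLA, with 11.2 for the DMT and 3.45 for the vHipp. Of 5 Nacc marker genes, 5 were also higher in the BLA than in the mean of the others, and of 4 BLA marker genes 3 were.

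Across libraries of the BLA the members moved together. The 45 pairs of members had a median Pearson r of 0.98 (lowest 0.87) on the log2 scale across 41 libraries, and 44 of the pairs were above 0.9. The DMT median was 0.92 and the vHipp median 0.64. In the mPFC, ACC and Nacc it was 0.13, 0.12 and 0.14. The points share depth and scaling, and r is given here as a description. In the Nacc, Clic6, Prlr and Sostdc1 had r of 0.70, 0.77 and 0.81 with the mean of the other 9 members, while Ttr rested on a few counts there.

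The level of a member per unit of Ttr was set out for the 3 regions in which Ttr exceeded 100 CPM in some libraries. Across 41 libraries, 1000 CPM of Ttr went with 12.8 ± 0.27 (SE) CPM of Folr1 for the BLA, with 13.3 ± 0.27 for the DMT and 13.5 ± 0.46 for the vHipp. For Slc4a5 the slopes were 12.97 ± 0.33, 14.4 ± 0.32 and 11.5 ± 0.32. For Tmem72 they were 49.4 ± 1.39, 48.5 ± 0.89 and 41.9 ± 1.57. Without the 2 farthest libraries, the slopes in the BLA, DMT and vHipp were 12.7, 12.7 and 15.9 for Folr1. For Tmem72 they were then 48.6, 47.9 and 52.6, so its vHipp slope went from the lowest of the 3 to the highest. The vHipp slope of Slc4a5 was then 11.1. The SEs do not cover this dependence on a few libraries. The slopes describe these libraries, and their differences between regions were not tested. Enpp2 had the highest slopes, at 754 ± 16.3 for the BLA, with 932 ± 16.1 for the DMT and 731 ± 54.95 for the vHipp. Without the 2 farthest libraries these were 757, 872 and 817.

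The intercepts of these lines give the level of a member where Ttr is at 0. For Folr1 they were 0.352 ± 0.708 CPM for the BLA, with 0.174 ± 0.0824 for the DMT and 0.106 ± 0.0229 for the vHipp. Enpp2 kept 148 ± 42.4, 177 ± 4.89 and 83.5 ± 2.74 CPM. Clic6 kept 17.9 ± 2.22 CPM in the BLA, Prlr 16.2 ± 0.48 in the DMT, and Kl 20.0 ± 0.50 in the vHipp. In the regions named, Enpp2, Clic6, Prlr and Kl thus had higher intercepts than Folr1. This did not extend to every region: Kl had 0.269 ± 0.363 CPM in the DMT and Clic6 0.343 ± 0.0343 in the vHipp. Sostdc1 also kept 3.66 ± 0.955 CPM in the BLA and 1.44 ± 0.165 in the DMT. Myelinating oligodendrocytes are known to express Enpp2. Of 8 oligodendrocyte genes, 8 were higher in the DMT than in the mean of the others and 0 differed in the BLA. The part of these cells in the level of Enpp2 was not tested.

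**Figure D3:**
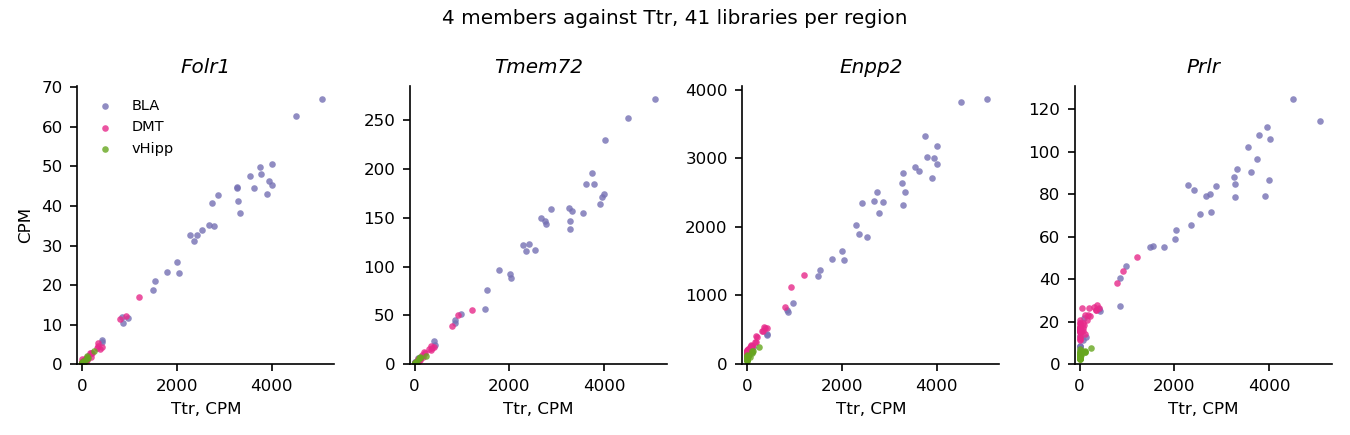
Folr1, Tmem72, Enpp2 and Prlr (CPM, vertical axes) against Ttr (CPM, horizontal axes) in 41 libraries each of the BLA, DMT and vHipp. Each gene rose with Ttr in all 3 regions, and Enpp2 and Prlr stayed above 0 where Ttr was at 0.

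The 10 genes outside the members whose level was most like the mean of the members, by the mean of the within-region Pearson r over 6 regions, were Krt8 (0.67), Otx2, Foxj1, Cspg4b, Col9a3, Efs, Gm19935, Cfap126, Trpm3 and Calml4 (0.63). In the BLA alone, 323 of 17371 genes had r above 0.9 with the mean of the members, and Kcnj13 had the highest, at 0.998. The DMT had 12 such genes and the vHipp 1. The genes Abcb1b, Best1 and Tlr1, which the study followed, had r of 0.28, 0.14 and -0.13 in the BLA. Tlr1 had r of 0.52 in the DMT and 0.34 in the vHipp, and the other r of these genes lay between -0.27 and 0.13.

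In the BLA, ependymal genes were higher and striatal marker genes lower in libraries with more of the members. The level of the members was graded over the 41 libraries, with Ttr at 10.9, 72.7, 99.4, 126 and 417 CPM in those that followed the 5 lowest, so relations are given over all of them and on both sides of 100 CPM of Ttr, itself a member. Between the mean of 10 ependymal genes and the mean of the members, r was 0.96 over all 41 libraries (rho = 0.96, both permutation p = 1e-05, the smallest that the resamples allow, adjusted over 48 relations 4.36e-05 and 8e-05, and r = 0.95 without the 2 farthest). It was 0.95 in the 33 libraries above 100 CPM of Ttr (rho = 0.92, both permutation p = 1e-05, adjusted 5e-05, and r = 0.93 without the 2 farthest). In the 8 others it was 0.67 (rho = 0.81, permutation p = 0.0633 and 0.0208, adjusted 0.0904 and 0.0347), and without the 2 farthest libraries it fell to 0.18, so that relation rests on those libraries.

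The mean of 5 Nacc marker genes (Drd1, Drd2, Adora2a, Ppp1r1b and Rgs9), which striatal neurons express, had r = -0.71 with the mean of the members over all 41 libraries (rho = -0.73, both permutation p = 1e-05, adjusted 4.36e-05 and 8e-05, and r = -0.72 without the 2 farthest). In the 33 libraries r was -0.46 (rho = -0.56, permutation p = 0.00737 and 0.00089, adjusted 0.0147 and 0.00182, and r = -0.43 without the 2 farthest). In the 8 others r was -0.21 (rho = -0.10, permutation p = 0.595 and 0.838, adjusted 0.744 and 0.838, and r = 0.50 without the 2 farthest). The values on either side of 100 CPM are adjusted over 10 relations. The 3 BLA libraries closest to Nacc were all low in plexus, with Ttr at 0.418 CPM in mouse 59, 72.7 in mouse 87 and 0.878 in mouse 89. Adora2a had a median of 136 CPM in the BLA and 252 in the Nacc. The part of punch position in the levels was not tested.

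**Figure D4:**
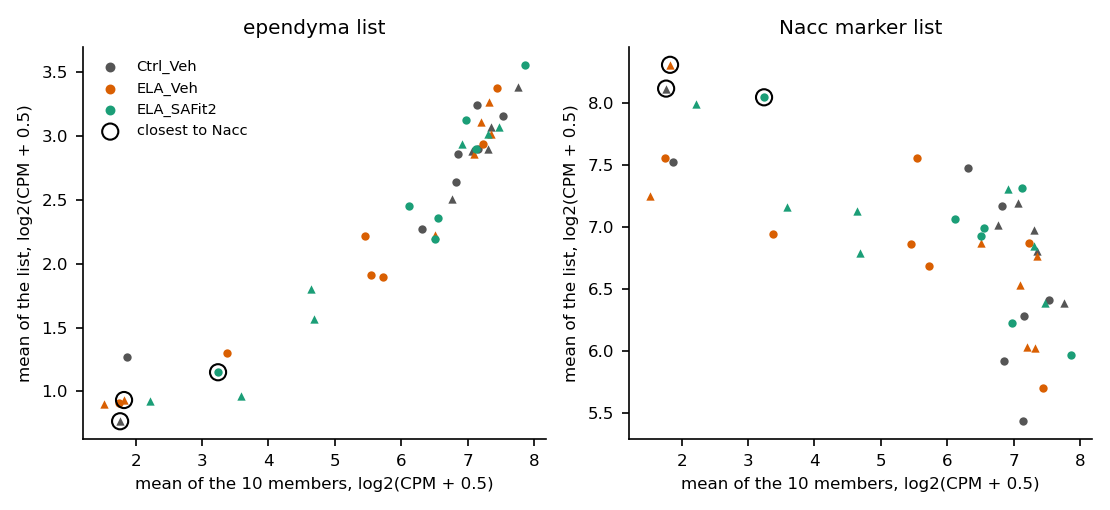
Mean of the ependymal genes (left) and of the Nacc marker genes (right) against the mean of the 10 members, all as mean log2(CPM + 0.5), in 41 BLA libraries. Colours are conditions, circles and triangles mice without and with social interaction, and rings mark the 3 libraries closest to Nacc, which lay at the lower end of the members' level.

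The members did not differ detectably between conditions or between sets in any region. Of 715 tests of a member in 78 comparisons within a region, 0 passed edgeR's quasi-likelihood test with Benjamini-Hochberg adjustment over all 15722 to 15992 genes tested, and the smallest adjusted p was 0.134. At an unadjusted p under 0.05 there were 42, or 5.87%, beside 5.04% of all genes over the same comparisons. By kind of comparison, it was 18.2% between sets (10 of 55 tests, 8 of them in the vHipp) beside 13.2% of all genes. Between conditions it was 4.24% (21 of 495) beside 4.49%, and for the condition effect between sets 6.67% (11 of 165) beside 3.97%. DESeq2 also called 0 of 715, with 41 at an unadjusted p under 0.05. After the filter on low counts 8 members were left for the mPFC and Nacc, 9 for the ACC and all 10 for the BLA, DMT and vHipp.

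In the BLA of mice without social interaction, Ttr was at a median of 2534 CPM in Ctrl_Veh, from 0.741 to 4011 in 7 mice. In ELA_Veh the median was 860 CPM, from 0.0864 to 3786. In ELA_SAFit2 it was 2042 CPM, from 72.7 to 5071. The 3 groups overlapped over nearly their whole range, and 1 mouse of Ctrl_Veh (mouse 65) and 1 of ELA_Veh (mouse 13) had almost no Ttr. With social interaction, the medians were 3111, 3279 and 428 CPM in Ctrl_Veh, ELA_Veh and ELA_SAFit2, and the ranges were 0.878 to 4509, 0 to 4002 and 10.9 to 3907 CPM. Each group again held both low and high libraries. Between ELA_SAFit2 and ELA_Veh the log2 difference was 0.88 with social interaction (exact permutation p = 0.731, adjusted 0.880). Its direction is unsettled: the mean in CPM was lower in ELA_SAFit2, at 1579 beside 2281, and the log2 difference was -0.64 without mouse 53 and -0.49 without mouse 59.

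In the DMT without social interaction, Ttr had medians of 24.3, 19.8 and 10.9 CPM in Ctrl_Veh, ELA_Veh and ELA_SAFit2, with highest libraries of 347, 920 and 105.4. With social interaction the medians were 116, 63.8 and 19.5 CPM, with highest libraries of 800, 415 and 1212. In the vHipp all 6 group medians lay between 0.0881 and 0.871 CPM, and the high values came from single libraries. The groups overlapped in both regions.

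On the log2 scale, Ttr in the BLA differed by -1.38 between ELA_Veh and Ctrl_Veh without social interaction (two-sided exact permutation test, p = 0.485, adjusted over 42 tests 0.880). Between ELA_SAFit2 and ELA_Veh the difference was 2.16 (exact permutation p = 0.264, adjusted 0.880). Without mouse 13 the first difference was 0.15, and without mouse 65 it was -2.95, so single libraries set its direction. Over 42 such tests of Ttr in 6 regions, 3 had an unadjusted p under 0.05, in the mPFC and ACC where Ttr was under 1 CPM, and the smallest adjusted p was 0.245.

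As a value with no test, the members' mean in the BLA differed by -1.02 between ELA_Veh and Ctrl_Veh without social interaction. This difference stayed below 0 with each mouse left out in turn, from -1.75 without mouse 65 to -0.44 without mouse 13. Between ELA_SAFit2 and ELA_Veh the members' mean differed by 1.12, from 0.54 without mouse 13 to 1.64 without mouse 87. Both differences were smaller than the SDs, which were 1.96 in Ctrl_Veh, 2.03 in ELA_Veh and 1.48 in ELA_SAFit2. Between ELA_SAFit2 and Ctrl_Veh the difference was 0.10 and turned with the mouse left out, from -0.63 without mouse 65 to 0.62 without mouse 87.

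The fit across all genes was then read for each member. In the BLA, the log2 fold changes of the 10 members between ELA_Veh and Ctrl_Veh without social interaction lay between -0.79 and -0.55, with a median of -0.70. Between ELA_SAFit2 and ELA_Veh they lay between 0.44 and 0.85, with a median of 0.67, and between ELA_SAFit2 and Ctrl_Veh between -0.13 and 0.14. The medians over all genes were 0.00 in the first 2 of these comparisons. These comparisons share samples, and the members move together, so the members are not separate evidence. For Enpp2 the change between ELA_Veh and Ctrl_Veh was -0.69, with a 95% interval from -2.23 to 0.84. Changes of that size could not be told from 0. Averaged over both sets, the median change of the members was -0.53 between ELA_Veh and Ctrl_Veh and 0.10 between ELA_SAFit2 and ELA_Veh. Of all genes, 0.0%, 0.00625% and 0.0% were called in the BLA comparisons ELA_Veh with Ctrl_Veh, ELA_SAFit2 with ELA_Veh and ELA_SAFit2 with Ctrl_Veh, 0.0%, 0.0% and 0.0252% in the DMT, and 0.0%, 0.0% and 0.00636% in the vHipp.

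**Figure D5:**
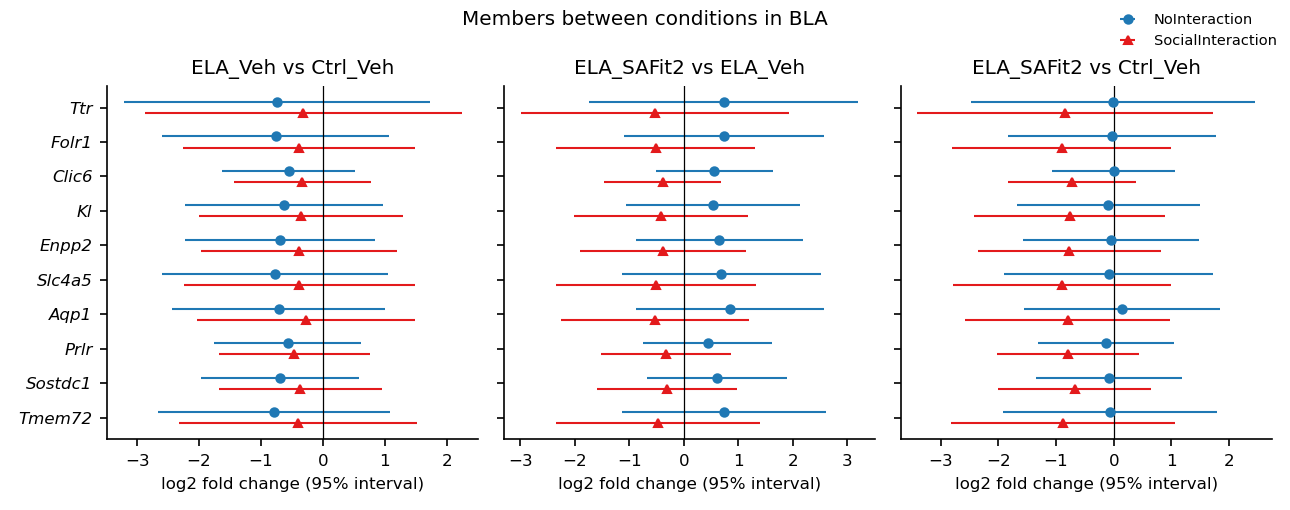
Log2 fold changes of the 10 members between conditions in the BLA (horizontal axes) with their 95% intervals, in mice without (circles) and with (triangles) social interaction. Every interval covers 0.

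Between sets, 0 members were called. In the BLA the median change of the members with social interaction was 0.08, where 1.49% of all genes were called. In the DMT it was 0.82 and 1.6% of all genes were called. In the vHipp the median was -1.002, where 1.21% of all genes were called. At an unadjusted p under 0.05 there were 8 of 10 members and 2027 of 15722 genes. There, Ttr changed by -2.57 (95% interval -4.44 to -0.69, edgeR adjusted p = 0.185). On the log2 scale the mean levels of Ttr differed by -0.91 (permutation p = 0.273, 20 against 21 mice). The vHipp values rest on a few libraries: all 4 that exceeded 100 CPM came from mice without social interaction. The shares of all genes called were 4.15% in the ACC, 7.4% in the mPFC and 0.0% in the Nacc, with 0 members called.

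The response to condition did not differ detectably between sets for any member: 0 of 165 such edgeR tests passed, with 11 at an unadjusted p under 0.05. In the DMT, 7 of these were in the comparison of ELA_SAFit2 with ELA_Veh, in which 390 of 15847 genes were under 0.05 and Kl differed by 3.63 ± 1.59 (SE, edgeR adjusted p = 0.9999).

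A score used by the study ranks genes whose change with ELA is opposed by the change with SAFit2. It was computed here from edgeR fold changes in the mice without social interaction, and a score above 1 means that both changes exceed 0.5 on the log2 scale in opposite directions. In the BLA, 9 of 10 members and 13 of 19 further plexus genes scored above 1, although 0 of them had a p under 0.05 in either comparison. The study's own cut for a high score is stricter than 1, so these are not counts at its cut. Clic6 (1.11) and Kl (1.07) lay below the study's cut, as did the further genes Lmx1a (1.12), Abca4 (1.07) and Rdh5 (1.03). Of 15982 other genes tested, 346 scored above 1, and 174 of these, or 50.3%, had an absolute r above 0.7 with the mean of the members across the same 21 libraries. Among all genes tested that share was 9.67%. Genes counted as scoring above 1 also had to pass the study's filter on fold change and level. Of the 910 other genes that passed this filter, 293 had such an r, a nearer base than all genes. With the mean of the members as a covariate, 149 genes scored above 1, and 5 of them had such an r. The fold changes and r rest on the same libraries, so these counts describe them and are no test.

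In the other regions fewer members scored above 1. In the DMT 4 of 10 did, of which Aqp1 (1.004), Ttr (1.07) and Tmem72 (1.10) lay below the study's cut. Of 225 other high-scoring genes there, 19, or 8.44%, had an absolute r above 0.7, beside 0.998% of all genes. Of the 816 other genes that passed the filter, the nearer base, 50 had such an r. In the vHipp 0 of 10 members scored above 1, and 4 of 187 genes, or 2.14%, had such an r, beside 0.204% of all genes. Of the 773 that passed the filter there, 14 had such an r, so the share was near that base. In the mPFC the share was 15.8% of 349 genes and in the Nacc 18% of 450, beside 8.30% and 7.90% of all genes. In the ACC it was 0 of 230 genes. Pairs of members had a median r of only 0.13 in the mPFC and 0.14 in the Nacc, and Ttr was near its detection limit in both. Some Nacc libraries also match another mouse than the one on their label. The mPFC and Nacc shares therefore say little about plexus content, and what the members' mean follows there was not tested.

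The mean of the members in 1 region was compared with that in another region of the same mouse. Of 15 pairs of regions, with the mean of the group removed, r between mPFC and ACC was 0.47 (rho = 0.45, permutation p = 0.00174 and 0.0032, adjusted over 15 pairs 0.0261 and 0.0279, and r = 0.39 without the 2 farthest mice). For Ttr alone it was 0.23 (permutation p adjusted 0.469). Between BLA and DMT, r was -0.32 (rho = -0.38, permutation p = 0.0413 and 0.0146, adjusted 0.124 and 0.073, and r = -0.18 without the 2 farthest mice). Between Nacc and BLA, r was 0.37 (rho = 0.45, adjusted 0.114 and 0.0279), and without the 12 Nacc libraries that match another mouse r was 0.43 and rho 0.43 in 29 mice (permutation p = 0.0185 and 0.021, adjusted 0.0925 and 0.105), so neither passed. For Ttr alone r was 0.21 and rho 0.29 (permutation p adjusted 0.469 and 0.318).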

How the data were processed

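RNA-seq was made from poly-A RNA of punches, and the authors quantified it with salmon. Per gene, the authors deposited estimated counts that are scaled to neither depth nor length, and 12.12% of them were not whole. They were rounded. The labels' processing notes also name STAR, DESeq2 and the builds GRCm39 and mm39, without versions. Gene types and coordinates came from GENCODE M21 (GRCm38), which matched 52073 of 56691 identifiers, so coordinates are not those of the authors' build.

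Following the study's filter, genes were kept if they code for protein, reach 100 counts in total and have any in 6 or more libraries. They entered edgeR 4.0.16 in R 4.3.3 (TMM, quasi-likelihood, Benjamini-Hochberg over all genes). Region fits kept the mouse as a block, since the labels give the same mouse number in each region. Conditions and sets were tested within a region, all 41 libraries sharing one spread. limma 3.58.1 and DESeq2 1.42.0 were alternatives. The fits were tested on simulated data. Means of log values used log2(CPM + 0.5). Permutation tests of Ttr between conditions were exact, and those of Ttr between sets and of relations drew 100000 resamples. SciPy 1.17.1, NumPy 2.4.6, pandas 2.3.3 and Python 3.11.15 did the rest, with Matplotlib 3.10.9 for figures.

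The members, the gene lists and the tests were chosen with earlier results of these data known. Named genes were the members, the extremes of the further plexus list, the 10 genes most like the members' mean, 3 genes the study followed, and up to 4 per marker list. The score above 1 and the BLA libraries left out were chosen after values were seen.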

Additional observations from a re-analysis of the deposited data

Results flagged for a closer look

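Ttr and the mean of the members, which contains Ttr, were each examined in the 6 groups of every region on the log2(CPM + 0.5) scale, 72 examinations of 36 groups. In 20 of these, in 14 groups, 1 library lay apart from the rest of its group by the gap to its nearest neighbour. Chance flags about 1 in 20 where values are normally distributed. Ttr in the mPFC, Nacc and vHipp lay partly at its floor of -1, and the BLA groups held both very low and high libraries. That rate is therefore no base for the number flagged here. Both measures also share their libraries and are not independent: mice 65, 87 and 89 in the BLA and mice 17, 87 and 95 in the vHipp lay apart in both. Ttr in the mPFC stood at 0.21 in ELA_SAFit2 without social interaction (mouse 7, the highest, others -1 to -0.83). Ttr in the Nacc stood at 1.13 in Ctrl_Veh without social interaction (mouse 41, the highest, others -1 to -0.57) and -0.20 in ELA_SAFit2 without social interaction (mouse 7, the highest, others -1 to -0.76). Ttr in the BLA stood at 0.31 in Ctrl_Veh without social interaction (mouse 65, the lowest, others 10.59 to 11.97), -0.77 in ELA_Veh without social interaction (mouse 13, the lowest, others 6.64 to 11.89), 6.19 in ELA_SAFit2 without social interaction (mouse 87, the lowest, others 10.54 to 12.31) and 0.46 in Ctrl_Veh with social interaction (mouse 89, the lowest, others 11.20 to 12.14). Ttr in the vHipp stood at 6.71 in ELA_SAFit2 without social interaction (mouse 87, the highest, others -1 to 0.51), 3.08 in Ctrl_Veh with social interaction (mouse 17, the highest, others -0.88 to 0.27) and 4.87 in ELA_SAFit2 with social interaction (mouse 95, the highest, others -0.90 to 0.91). The mean of the members in the ACC stood at 1.16 in ELA_Veh with social interaction (mouse 61, the highest, others 0.51 to 0.70). The mean of the members in the BLA stood at 1.87 in Ctrl_Veh without social interaction (mouse 65, the lowest, others 6.31 to 7.53), 3.24 in ELA_SAFit2 without social interaction (mouse 87, the lowest, others 6.11 to 7.86) and 1.77 in Ctrl_Veh with social interaction (mouse 89, the lowest, others 6.77 to 7.75). The mean of the members in the DMT stood at 5.70 in ELA_Veh without social interaction (1 mouse, the highest, others 1.31 to 3.13). The mean of the members in the vHipp stood at 3.03 in ELA_Veh without social interaction (1 mouse, the highest, others 0.99 to 1.77), 3.12 in ELA_SAFit2 without social interaction (mouse 87, the highest, others 0.92 to 1.29), 1.54 in Ctrl_Veh with social interaction (mouse 17, the highest, others 0.98 to 1.17), 2.46 in ELA_Veh with social interaction (1 mouse, the highest, others 0.83 to 1.28) and 2.21 in ELA_SAFit2 with social interaction (mouse 95, the highest, others 0.91 to 1.30). In the BLA the libraries apart were all the lowest of their group, and in the vHipp all the highest. The cause was not tested.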

How the results depend on the processing

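All 10 members were higher in the BLA, and 8 in the DMT, in each of the alternatives run: without the replicate block (10 and 8), with DESeq2 size factors, with every gene with any count, with all gene types, with limma-voom and without the Nacc libraries that match another mouse. In the vHipp 1 member was higher, and 2 were without the replicate block, with DESeq2 size factors and with limma-voom. In every alternative run, 0 tests of a member between conditions or sets were called. Genes called between sets changed by more than 1.5 times in some regions. In the BLA they were 239, and 459 with the mean of the members as a covariate, 462 with DESeq2 and 155 without the 3 libraries closest to Nacc, an alternative chosen after seeing the data. In the DMT they were 253, and 381 with DESeq2. In the vHipp they were 190, and 116 with the covariate and 308 with DESeq2. In the Nacc they were 0, and 4 without the libraries that match another mouse. Between conditions, DESeq2 called 95 genes over 18 comparisons and edgeR 12. The genes with a score above 1 fell from 349 to 227 in the mPFC and from 346 to 149 in the BLA with the covariate. The cause was not tested. With Spearman's rho the median relation of a member with the other 9 was 0.986 for the BLA, with 0.890 for the DMT and 0.529 for the vHipp, and Pearson's r was 0.993, 0.960 and 0.871. For Ttr alone, r between mPFC and ACC was 0.229, between ACC and BLA -0.0307 (0.0175 for the mean of the members) and between Nacc and DMT 0.112 (-0.0148). Leaving out each mouse in turn, the difference of Ttr between ELA_SAFit2 and ELA_Veh in the BLA without social interaction ranged from 0.63 to 2.89, and with social interaction from -0.64 to 1.79. No paired analysis was possible between conditions because the groups share no mice. At the depth of these libraries, differences of Ttr in the mPFC, ACC and Nacc are not detectable.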

Other observations

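Of the further plexus genes, Car12 and Abca4 changed between sets in the cortex, where Ttr was near its detection limit. Car12, a carbonic anhydrase, was higher with social interaction in the mPFC (log2 fold change 0.61 ± 0.12 SE, edgeR adjusted p = 0.00141) and in the ACC (0.57 ± 0.09, edgeR adjusted p = 0.000308). Abca4, a lipid transporter, was lower in the mPFC, by 0.44 (edgeR adjusted p = 0.0239), and in the ACC, by 0.44 (edgeR adjusted p = 0.0031). Both genes were named after their values were seen. Prlr in the Nacc without social interaction differed by 1.60 ± 0.63 (SE) between ELA_Veh and Ctrl_Veh and by -1.57 ± 0.63 between ELA_SAFit2 and ELA_Veh, and neither passed (edgeR adjusted p = 0.605 and 0.368). Among the 7 ELA_Veh libraries, mouse 43 stood at 16.4 CPM and mouse 69 at 13.9, beside a group median of 2.13, and the library labelled mouse 69 is one of those that match another mouse.

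Igf2, from the fibroblast list, had a median of 225 CPM in the BLA and 40.6 in the DMT, and was chosen after its values were seen. Col1a1, at 7.07 and 7.78, and Col1a2, at 7.50 and 10.1, did not follow it, and of the 8 genes 2 were higher and 3 lower in the BLA than in the mean of the others. The mean of the 8 fibroblast genes had r = 0.72 with the mean of the members in the 33 BLA libraries above 100 CPM of Ttr (rho = 0.60, permutation p = 2e-05 and 0.00025, adjusted 6.67e-05 and 0.000833, and r = 0.58 without the 2 farthest). In the 8 others r was 0.73 (rho = 0.48, permutation p = 0.0431 and 0.242, adjusted 0.0718 and 0.3025), and it turned to -0.49 without the 2 farthest libraries. Igf2 is among the 8 genes and ran from 22.7 to 554 CPM over the BLA libraries. Dcn ran from 4.92 to 44.0 and Col1a1 from 5.04 to 9.62. The part of Igf2 in this relation was not tested.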
